A study of Rattus norvegicus with 8 samples.

Results

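The genes Glul, Cyp2e1, Oat, Rhbg, Lgr5, Axin2, Tbx3, Lect2, Rnf43 and Znrf3, which mark the hepatocytes around the central vein or report WNT signalling, were followed in rat liver. They were chosen by gene symbol, with no measured value in the rule, and are 10 of the 30562 genes of the count table. All 10 passed the filter on low counts, among 16591 genes that were tested. The 8 libraries come from the livers of 8 Wistar rats, given as male in the labels and as 160 g at the start of treatment, 2 in each of 4 groups, sequenced with 150 bp paired reads. The Control group received vehicle. The Atorvastatin group received atorvastatin, a statin that blocks cholesterol synthesis, through the drinking water for 30 days, nominally 5 mg/kg daily. The labels also say that each rat drank 20 mL holding 5 mg, which for a rat of 160 g would be 31.25 mg/kg, so the true dose is not certain. The HCB group received hexachlorobenzene, a chlorinated fungicide that persists in the environment and causes porphyria and liver tumours in rodents, at 100 mg/kg by gavage 3 times a week for 30 days. The Atorvastatin plus HCB group received both, and all rats were killed on day 37. Of 5 rats assigned to a group, 2 were sequenced.

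Hepatocytes along the liver lobule differ in their work. Those next to the central vein take up ammonium, make glutamine and carry many cytochrome P450 enzymes, while those near the portal vein run the urea cycle and make glucose. WNT proteins and R-spondin from the endothelium of the central vein hold the pericentral programme in place through beta-catenin, which joins TCF and LEF factors on DNA. The same signal switches on its own brakes: AXIN2 rebuilds the complex that degrades beta-catenin, and the membrane ubiquitin ligases RNF43 and ZNRF3 remove Frizzled receptors, unless R-spondin bound to an LGR receptor takes the ligases away.

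The libraries differed in more than their labelled treatment, and this touches every comparison with HCB. Y-linked genes, 4 of 4, were all called higher in the HCB-labelled libraries (those of the HCB and the Atorvastatin plus HCB groups), where they summed to 135 to 217 CPM (reads of a gene per 1e6 reads of normalised library size). In the libraries labelled Control or Atorvastatin, also said to come from male rats, they summed to 0.90 to 1.90 CPM. The fetal liver markers (5 of 5 called lower in the HCB-labelled libraries) summed to 37451 to 51247 CPM in the libraries without HCB against 148 to 333 CPM in those with it. Cell division markers (5 of 5 lower) summed to 203 to 492 CPM against 13.6 to 40.7 CPM, erythroid markers (7 of 7 lower) to 1852 to 4617 CPM against 285 to 1284 CPM, and neutrophil markers (5 of 5 lower) to 106 to 180 CPM against 0.301 to 1.39 CPM, with Elane at 0 reads in 3 of the 4 HCB-labelled libraries. Hepatocyte markers, which define the labelled tissue, had a high sum throughout, at 79445 to 152619 CPM without HCB and 119217 to 189080 CPM with it. The sum does not speak for each of the 8 markers. Serpina1 averaged 1.58 CPM without HCB and 9.15 CPM with it. Apoa1 was lower in the HCB-labelled libraries against the others (log2 −2.41), where 4 of the 8 were higher. Of all genes tested, 21.3% were called higher and 25.3% lower in that comparison, shares that stand beside each count of markers here. Markers of central vein and sinusoidal endothelium summed to 670 to 863 CPM against 619 to 747 CPM, those of Kupffer cells to 155 to 280 CPM against 200 to 357 CPM, and those of bile duct cells to 5.22 to 11.3 CPM against 10.8 to 19.3 CPM (Krt19 is not in the table). Of the 10 endothelial markers, Clec4g was higher (log2 differences of 2.45 and 2.50) and Stab2 lower (−1.45 and −1.07) in HCB versus Control and in the combination against Atorvastatin, and Fcgr2b was higher in the combination (1.04). In the HCB-labelled libraries against the others, 3 of the 10 were higher and 2 lower, with Kdr (0.49) also higher and Rspo3 (−0.71) also lower. These endothelial markers are named after their values were seen. Of the 5 Kupffer cell markers, Vsig4 (log2 3.29) and Clec4f (1.34) were higher and Marco (−1.48) lower in the HCB-labelled libraries against the others. The other 2 were not called, and these Kupffer cell genes too are named after their values were seen. The part of the endothelial and Kupffer cell markers in the results below was not tested. What HCB did and what goes with Y-linked or fetal expression cannot be told apart here, so each direction below is that of the labels. Each library had 29.4 M to 52.0 M assigned reads (M, units of 1e6). Reads outside annotated exons made up 7.46% to 11.4% in the HCB-labelled libraries and 15.3% to 34.0% in the others, highest in replicate 1 of Control and of Atorvastatin.

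Because WNT target genes are read through TCF and LEF factors, the stretch before each start site was searched on both strands for the motif CTTTGAA and its variants, which are CTTTGAT, with CTTTGTA next and CTTTGTT last. RefSeq start sites on the GRCr8 build were matched for 7 of the 10 genes, in 8 windows of 250 bases, and 4 of the 7 genes held a match: Axin2, Cyp2e1, Glul and Lect2. Counted by window, 4 of the 8 hold at least 1 match, and of 33469 rat windows of this length 14.9% do. The 4 windows are shown 5′ to 3′ on the strand of the gene, ending at the base before the start, with each match in capitals, because these genes went in different directions in the counts below.
Axin2 (chr10:94398535-94398784, plus strand): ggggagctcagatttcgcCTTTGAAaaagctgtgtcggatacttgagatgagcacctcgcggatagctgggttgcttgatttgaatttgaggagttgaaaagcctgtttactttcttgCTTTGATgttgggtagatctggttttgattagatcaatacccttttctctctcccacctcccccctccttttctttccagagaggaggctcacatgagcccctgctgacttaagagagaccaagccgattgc
Cyp2e1 (chr1:205269717-205269966, plus strand): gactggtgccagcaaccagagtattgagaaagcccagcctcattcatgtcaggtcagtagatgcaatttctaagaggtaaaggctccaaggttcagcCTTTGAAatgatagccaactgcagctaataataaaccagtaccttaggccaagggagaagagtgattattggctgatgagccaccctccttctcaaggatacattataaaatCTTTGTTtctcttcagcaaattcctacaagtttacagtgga
Glul (chr13:68519250-68519499, plus strand): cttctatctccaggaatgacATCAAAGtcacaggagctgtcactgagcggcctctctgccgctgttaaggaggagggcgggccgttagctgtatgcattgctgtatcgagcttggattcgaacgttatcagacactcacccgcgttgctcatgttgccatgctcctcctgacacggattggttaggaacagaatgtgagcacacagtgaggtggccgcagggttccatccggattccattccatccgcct
Lect2 (chr17:8049784-8050033, plus strand): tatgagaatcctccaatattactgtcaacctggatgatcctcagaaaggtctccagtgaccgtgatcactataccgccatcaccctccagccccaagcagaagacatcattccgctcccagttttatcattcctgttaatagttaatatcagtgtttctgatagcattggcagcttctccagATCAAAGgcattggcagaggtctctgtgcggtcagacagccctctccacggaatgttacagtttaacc
In Axin2 the matches lie 232 to 226 and 132 to 126 bases before the start, and in Cyp2e1 153 to 147 and 41 to 35 bases before it. Glul and Lect2 hold the motif on the opposite strand, as ATCAAAG, 230 to 224 and 68 to 62 bases before the start, and in Glul only 1 of its 2 RefSeq starts has it. The Glul window shown is that of the upstream start. The other window, chr13:68575816-68576065, lies further from it than the counted Glul gene is long, so the counted gene cannot span both, and which of them it begins at was not determined. The windows of Oat, Rhbg and Rnf43 hold none of these motifs. A match describes the sequence and is not a measured binding site.

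The pericentral genes of nitrogen and drug metabolism stood higher in the HCB-labelled livers, Oat far more than the others. Oat encodes ornithine aminotransferase, which turns ornithine towards glutamate (ENSRNOG00000016807, mRatBN7.2 chromosome 1, 187347865 to 187367682, minus strand). Oat was at 20.7 and 28.9 CPM in the Control libraries, 10.7 and 17.1 CPM in Atorvastatin, 805 and 344 CPM in HCB, and 337 and 174 CPM in Atorvastatin plus HCB. The lowest HCB-labelled library was far above the highest of the others, and the 2 HCB rats lay well apart from each other. Against Control, HCB was 23.1-fold higher (log2 fold change 4.53 ± 0.51 SE, adjusted p = 0.0001565), and Atorvastatin plus HCB was 18.4-fold above Atorvastatin (log2 4.20 ± 0.50, adjusted p = 0.0002307). As in any bulk tissue, more cells of a type and more RNA per cell cannot be told apart.

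Cyp2e1 encodes the P450 enzyme that oxidises ethanol and many small solvents (ENSRNOG00000012458, chromosome 1, 195840058 to 195864023, plus strand), and was the most abundant of the 10 genes. Cyp2e1 stood at 1503 and 1626 CPM in Control, 965 and 1462 CPM in Atorvastatin, 3632 and 3378 CPM in HCB, and 2192 and 3159 CPM in Atorvastatin plus HCB. All 4 HCB-labelled libraries were above all 4 others. HCB was 2.24-fold above Control (log2 1.16 ± 0.37, adjusted p = 0.03768), and the combination was 2.20-fold above Atorvastatin (log2 1.14 ± 0.37, adjusted p = 0.04043). Reads were counted without strand, and the opposite-strand gene Syce1, itself at 9 to 183 reads, shares 53 bases, or 2.25%, of the Cyp2e1 exons.

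Glul encodes glutamine synthetase, which fixes ammonium into glutamine and is the classic marker of the last hepatocytes before the central vein (ENSRNOG00000049560, chromosome 13, 66025630 to 66035108, plus strand). Glul was at 419 and 483 CPM in Control, 366 and 522 CPM in Atorvastatin, 647 and 803 CPM in HCB, and 843 and 891 CPM in Atorvastatin plus HCB. The 4 HCB-labelled libraries again lay above the 4 others. The combination was 1.95-fold above Atorvastatin (log2 0.97 ± 0.31, adjusted p = 0.03886), while the 1.61-fold difference between HCB and Control did not pass (log2 0.68 ± 0.31, adjusted p = 0.1221). Rhbg encodes a membrane channel for ammonia and ammonium (ENSRNOG00000019412, chromosome 2, 173704562 to 173717321, minus strand). Rhbg stood at 5.56 and 9.0 CPM in Control, 4.67 and 7.83 CPM in Atorvastatin, 11.7 and 10.5 CPM in HCB, and 9.78 and 18.1 CPM in Atorvastatin plus HCB. Its HCB-labelled libraries did not overlap the others, though the lowest of them was close to the highest Control. Rhbg was 2.23-fold higher in the combination than in Atorvastatin (log2 1.16 ± 0.38, adjusted p = 0.04181), and the log2 difference of 0.61 ± 0.37 between HCB and Control did not pass (adjusted p = 0.2505).

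**Figure D1:**
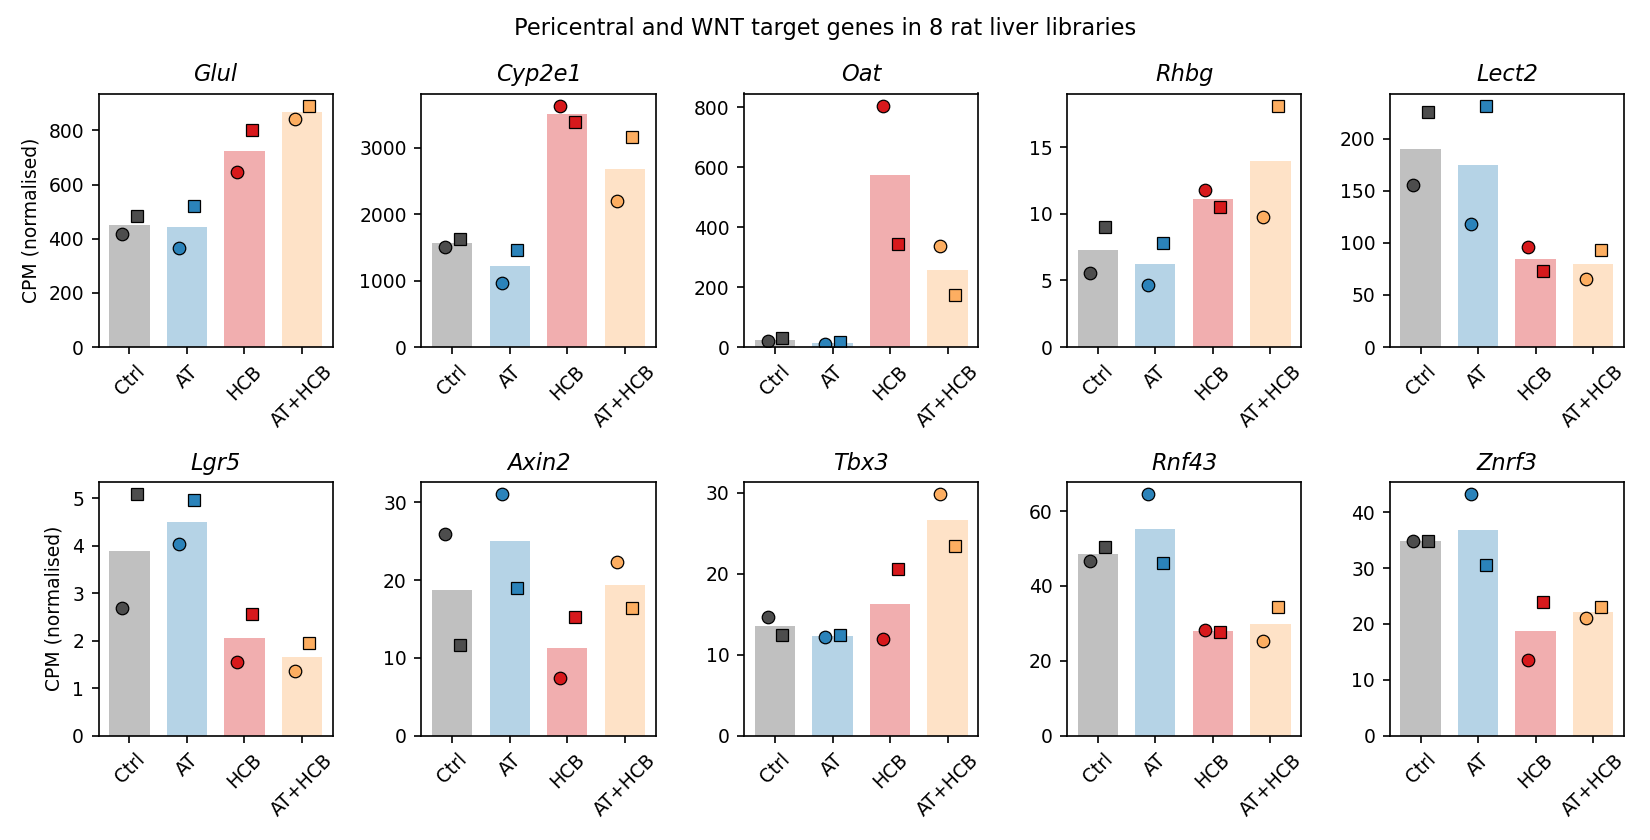
Levels of the 10 genes in CPM (y axis, each panel with its own scale from 0) in the 4 groups (Ctrl, Control; AT, Atorvastatin). Circles are replicate 1, squares replicate 2, and bars the mean of the 2 libraries; Oat goes from 10.7 to 28.9 CPM without HCB to 174 to 805 CPM with it, while Axin2 and Tbx3 overlap between libraries with and without HCB.

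Of the other hepatocyte genes, Lect2 went the opposite way, and Tbx3 passed in the combination against Atorvastatin but not in HCB against Control. Lect2 encodes a protein that hepatocytes secrete into blood and that is a known target of beta-catenin in liver (ENSRNOG00000012189, chromosome 17, 8044759 to 8050983, plus strand). Lect2 was at 156 and 225 CPM in Control, 118 and 232 CPM in Atorvastatin, 96.4 and 73.0 CPM in HCB, and 65.0 and 93.5 CPM in Atorvastatin plus HCB. Every HCB-labelled library was below every other library. The log2 difference was −1.17 ± 0.36 between HCB and Control (adjusted p = 0.03243) and −1.14 ± 0.36 between the combination and Atorvastatin (adjusted p = 0.03503). Tbx3 encodes a T-box transcription factor that hepatoblasts need and that beta-catenin activates (ENSRNOG00000008706, chromosome 12, 36881445 to 36893708, minus strand). Tbx3 stood at 14.7 and 12.4 CPM in Control, 12.2 and 12.4 CPM in Atorvastatin, 11.9 and 20.6 CPM in HCB, and 29.8 and 23.4 CPM in Atorvastatin plus HCB. The library of HCB replicate 1 was the lowest of all 8, and both libraries of the combination were the highest. Tbx3 was 2.16-fold above Atorvastatin in the combination (log2 1.11 ± 0.29, adjusted p = 0.01746). Its difference between HCB and Control was 0.26 ± 0.29 (log2, adjusted p = 0.532) and turned to −0.17 with scaling by library size alone, and the test of the difference between these 2 effects, the interaction, gave 0.85 ± 0.41 (adjusted p = 1).

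Among the 10 genes, the receptor and feedback genes Lgr5, Rnf43, Znrf3 and Axin2 had no member that rose. Lgr5 encodes a receptor for R-spondins that marks hepatocytes at the central vein as well as stem cells of other tissues (ENSRNOG00000004221, chromosome 7, 51088239 to 51222446, minus strand), and it was the scarcest of the 10, with 49 to 239 reads per library. Lgr5 was at 2.69 and 5.09 CPM in Control, 4.05 and 4.96 CPM in Atorvastatin, 1.55 and 2.56 CPM in HCB, and 1.35 and 1.96 CPM in Atorvastatin plus HCB. No HCB-labelled library reached the others, but the highest HCB library came close to the lowest Control library. Lgr5 fell by 1.44 ± 0.44 on the log2 scale in the combination against Atorvastatin (adjusted p = 0.03374), and its log2 difference of −0.92 ± 0.44 between HCB and Control did not pass (adjusted p = 0.1465).

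Rnf43 and Znrf3, the related ubiquitin ligases, were both lower in HCB than in Control. Rnf43 (ENSRNOG00000007606, chromosome 10, 72464348 to 72536977, plus strand) was at 46.7 and 50.4 CPM in Control, 64.5 and 46.1 CPM in Atorvastatin, 28.3 and 27.6 CPM in HCB, and 25.1 and 34.3 CPM in Atorvastatin plus HCB. Znrf3 (ENSRNOG00000067305, chromosome 14, 80160278 to 80313485, minus strand) was at 34.8 CPM in both Control libraries, 43.3 and 30.5 CPM in Atorvastatin, 13.5 and 24.0 CPM in HCB, and 21.0 and 23.1 CPM in Atorvastatin plus HCB. For both ligases every HCB-labelled library was below every other. Rnf43 fell by 0.80 ± 0.25 (log2) in HCB against Control (adjusted p = 0.03537) and by 0.90 ± 0.25 in the combination against Atorvastatin (adjusted p = 0.02153). Znrf3 fell by 0.89 ± 0.29 in HCB against Control (adjusted p = 0.04419), and its log2 difference of −0.74 ± 0.29 in the combination did not pass (adjusted p = 0.08106). Axin2 (ENSRNOG00000055010, chromosome 10, 93899245 to 93926231, plus strand) is the scaffold of the degradation complex and the most used readout of the pathway. It did not pass in any comparison of the main fit. Axin2 was at 25.9 and 11.7 CPM in Control, 31.1 and 19.0 CPM in Atorvastatin, 7.44 and 15.2 CPM in HCB, and 22.3 and 16.4 CPM in Atorvastatin plus HCB. The libraries with and without HCB overlapped. Its log2 difference was −0.73 ± 0.43 between HCB and Control (adjusted p = 0.2376) and −0.37 ± 0.43 between the combination and Atorvastatin (adjusted p = 0.54).

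Counted together, 5 of the 10 genes passed in HCB versus Control, 2 higher (Oat and Cyp2e1) and 3 lower (Lect2, Rnf43 and Znrf3), where 26.9% of all genes tested passed, 13% higher and 13.9% lower. Atorvastatin plus HCB versus Atorvastatin compares the other 4 libraries within the same model, so it is not an independent repeat. There 8 of 10 passed, 5 higher (Oat, Cyp2e1, Glul, Rhbg and Tbx3) and 3 lower (Lect2, Lgr5 and Rnf43). Of all genes 27.6% passed there, 12.6% higher and 15% lower. With these 2 groups fitted alone, 5 of 10 passed (4819 of all genes). In the average of both effects, 4 libraries against 4, 9 of 10 passed, where 46.6% of all genes passed, 21.3% higher and 25.3% lower. There Oat, Cyp2e1, Rhbg, Glul and Tbx3 were higher, by 4.37, 1.15, 0.88, 0.83 and 0.69 on the log2 scale. Lgr5, Lect2, Rnf43 and Znrf3 were lower in the average, at log2 differences of −1.18, −1.16, −0.85 and −0.82. Axin2, at −0.55 ± 0.30, did not pass (adjusted p = 0.1603). With no filter on low counts Axin2 did pass in the average, where all 10 genes and 8265 of all genes were called. The median log2 difference over the 10 genes was −0.23, 0.30 and 0.07 in the 3 comparisons, against −0.09, −0.11 and −0.11 over all genes, with 5 of the 10 genes above 0 and 5 below 0 in each comparison. The fetal, blood and Y-linked markers moved with all of these comparisons, and their part in the 10 genes' differences was not tested.

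**Figure D2:**
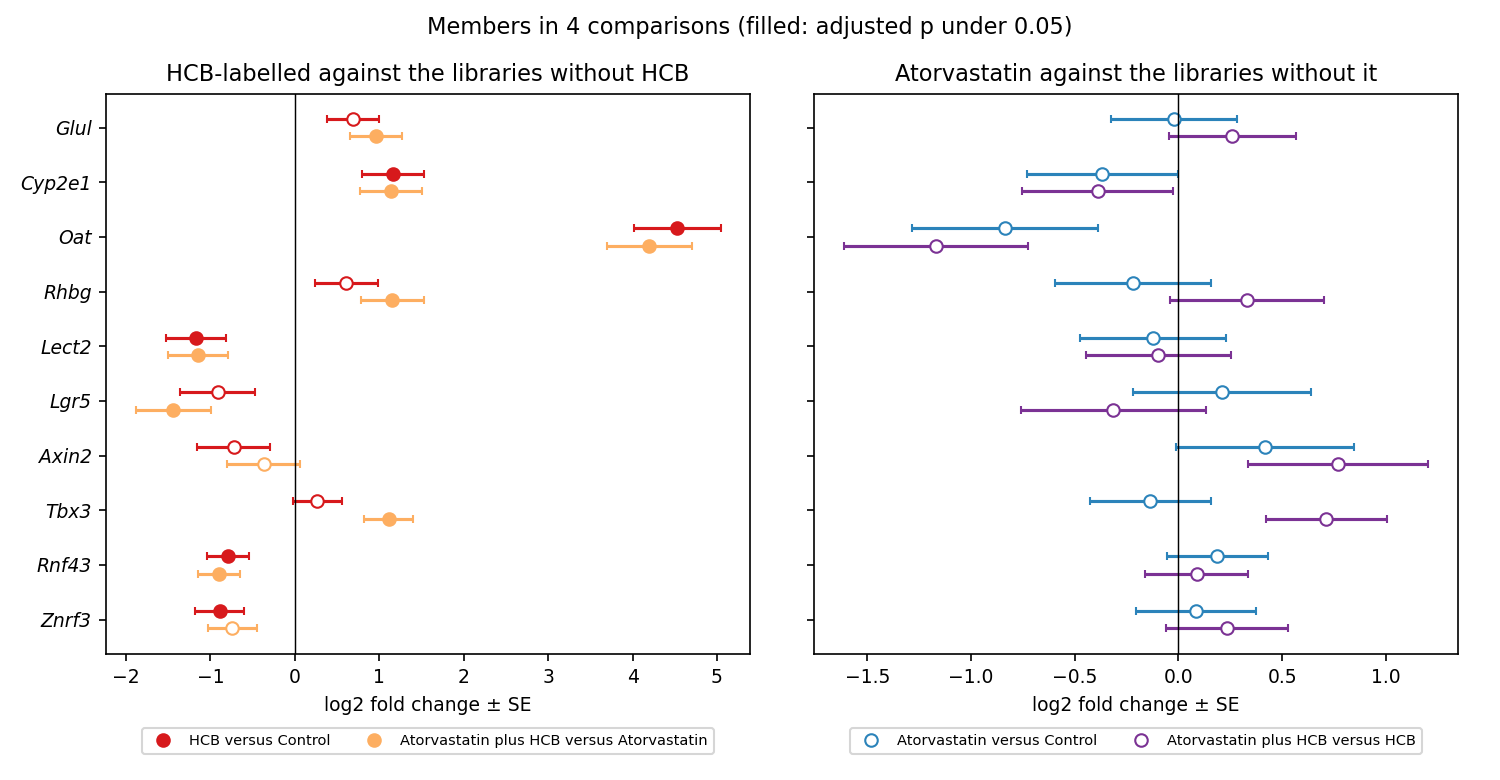
Log2 fold change with its standard error (x axis) for the 10 genes (y axis) in the 2 comparisons of HCB (left) and the 2 of atorvastatin (right, narrower scale); filled points passed an adjusted p of 0.05. On the left Oat lies at 4.53 and 4.20 and Lgr5, Lect2, Rnf43 and Znrf3 lie below 0, and on the right no point is filled.

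Which calls stand depends on the libraries. Leaving out each of the 8 libraries in turn kept Oat past the threshold in all 8 repeats of both HCB comparisons, with log2 differences of 3.82 to 5.02 and 3.68 to 4.62. No other gene passed in all 8 repeats of either comparison. In HCB versus Control the number of genes that passed was 1 to 5, with 1 left without Control replicate 2 and 1 without HCB replicate 1. Cyp2e1 and Rnf43 missed the threshold without any of the Control, HCB or combination libraries (adjusted p up to 0.192 and 0.142), and Znrf3 without any of these except HCB replicate 2 (up to 0.23). Lect2 missed it without Control replicate 2 or either HCB library (up to 0.18). In the combination against Atorvastatin 2 to 7 genes passed, with 2 left without Atorvastatin replicate 1 and 2 without either combination library. There Glul missed the threshold without either Control library, Atorvastatin replicate 1 or either combination library (adjusted p up to 0.214), and Cyp2e1 without any of these or HCB replicate 2 (up to 0.244). Rhbg missed it without Atorvastatin replicate 1, either HCB library or combination replicate 2 (up to 0.311), and Lgr5 without either Atorvastatin or either combination library (up to 0.224). Tbx3 missed it without either Atorvastatin library or combination replicate 1 (up to 0.125), Rnf43 without Atorvastatin replicate 1 or either combination library (up to 0.232), and Lect2 without Atorvastatin replicate 2, HCB replicate 1 or either combination library (up to 0.26). Znrf3 passed there when either HCB library was left out (adjusted p down to 0.0347).

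In the average of both HCB effects, Oat, Cyp2e1, Glul, Lect2, Rnf43 and Znrf3 passed in all 8 repeats. Rhbg missed the threshold without Control replicate 1, Atorvastatin replicate 1, HCB replicate 1 or Atorvastatin plus HCB replicate 2 (adjusted p up to 0.0896). Tbx3 missed it without Control replicate 2, HCB replicate 2 or Atorvastatin plus HCB replicate 1 (up to 0.0691), and Lgr5 without Control replicate 2 or Atorvastatin plus HCB replicate 1 (up to 0.0557). Without both libraries with most reads outside exons, Control replicate 1 and Atorvastatin replicate 1, fewer of these genes passed in the 3 comparisons. Fewer of all genes tested passed there as well, so the drop was not confined to this set. The number of all genes called also changed when single libraries were left out.

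The scaling between libraries also matters, because the 4 HCB-labelled libraries had normalisation factors of 0.777 to 0.891 and the others of 1.01 to 1.42. Scaling by library size alone shifted the median of all genes by −0.43 in HCB versus Control, −0.62 in the combination against Atorvastatin and −0.53 in the average. The share of called genes that were higher went from 48.5% to 24.1%, from 45.6% to 14.9% and from 45.7% to 17.6%. On that scale, in the average, Oat (3.85) and Cyp2e1 (0.65) were still called higher, while Glul (0.32, adjusted p = 0.151), Rhbg (0.41, adjusted p = 0.212) and Tbx3 (0.15, adjusted p = 0.631) were not. Lect2, Lgr5, Rnf43 and Znrf3 were called lower on it as well, and Axin2 also passed, at −1.13 (adjusted p = 0.0225). In HCB versus Control Cyp2e1 lost its call on this scale (0.74, adjusted p = 0.0721). In the combination against Atorvastatin Glul, Cyp2e1, Rhbg and Tbx3 lost theirs, at 0.37, 0.56, 0.60 and 0.48, and Znrf3 gained one, at −1.39 (adjusted p = 0.016). In Atorvastatin versus Control and in the interaction, where 0 genes passed on either scale, the shift of all genes was 0.12 and −0.19.

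**Figure D3:**
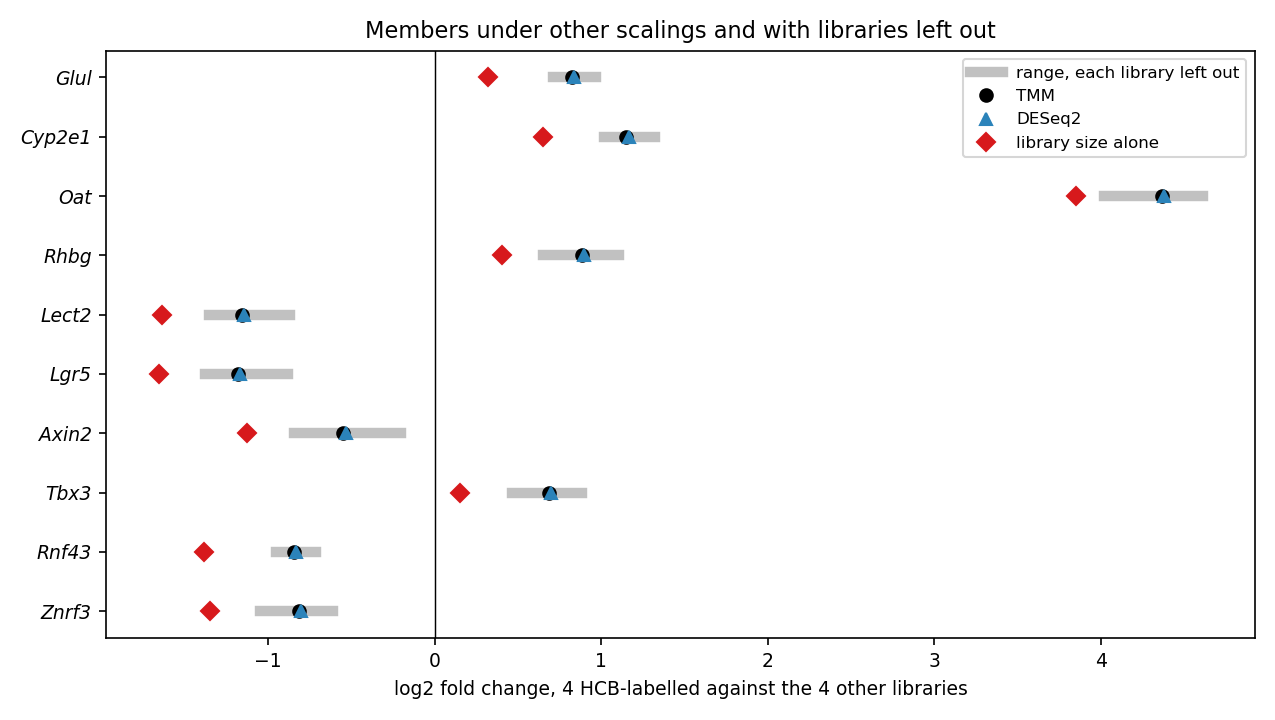
Average HCB-labelled difference (log2, x axis) of each gene (y axis) with TMM scaling (circles), in DESeq2 (triangles) and with scaling by library size alone (diamonds), and the range when each library in turn is left out (grey bars). Diamonds lie to the left of the circles throughout, so that Glul drops from 0.83 to 0.32 and Axin2 from −0.55 to −1.13.

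Ratios of reads between members of the same library do not depend on scaling. Glul had 5.67 to 11.3 reads per Rnf43 read in the 4 libraries without HCB and 22.8 to 33.5 in the 4 with it. Glul per Lect2 was 2.14 to 3.09 against 6.70 to 13, and Rhbg per Lgr5 was 1.15 to 2.07 against 4.08 to 9.25. These pairs set a gene of ammonium metabolism over a gene that was lower and were chosen with the levels known, so their separation is a description only. Within the pericentral set Oat per Cyp2e1 read went from 0.0111 to 0.0178 without HCB to 0.0552 to 0.222 with it. Tbx3 per Rnf43 was at 0.189 to 0.314 without HCB and 0.419 to 1.19 with it. Tbx3 itself overlapped between these libraries while Rnf43 was lower with HCB, so this separation too is a description only. Between the 2 ligases the ratio Znrf3 per Rnf43 overlapped, at 0.662 to 0.745 without HCB and 0.478 to 0.868 with it.

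Atorvastatin moved none of the 10 genes past the threshold. In Atorvastatin versus Control 0 of 16591 genes passed (0%), in Atorvastatin plus HCB versus HCB 0 (0%), in the average of both 0 (0%) and in the interaction 0 (0%), all with edgeR. At an unadjusted p under 0.05 there were 181, 857, 601 and 391 genes, and DESeq2 called 3, 47, 12 and 5. In simulated counts, the edgeR test recovered 11 of 100 genes changed 2-fold in Atorvastatin versus Control. It recovered 7 of 100 such genes in the combination against HCB. At 4-fold it recovered 60 and 56 of 100, so changes of the size seen below could go uncalled. The 10 genes ranged from −0.83 to 0.42 (log2) in Atorvastatin versus Control and from −1.17 to 0.77 in the combination against HCB. Oat was at the low end of both. Its 2 combination libraries, 337 and 174 CPM, lay below both HCB libraries, at 805 and 344 CPM, though 337 and 344 are nearly equal, and the difference of −1.17 ± 0.45 had an adjusted p of 0.8917 (unadjusted 0.02384). Averaged over both backgrounds, Oat differed by −1.0 ± 0.32 (adjusted p = 0.9905, unadjusted 0.008943). Oat passed in both of these comparisons in the repeat with no filter on low counts, with an adjusted p of 0.0379 and 0.00296. Tbx3 was higher in both combination libraries than in both HCB libraries, by 0.71 ± 0.29 (adjusted p = 0.8917), and Axin2 by 0.77 ± 0.43 (adjusted p = 0.8917). Over all 10 genes the interaction ran from −0.53 to 0.85, with the adjusted p at 1 for each of them.

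Per length of transcript, the order of the 10 levels was compared in RPKM, which is CPM divided by the exon length in kilobases, and neighbours whose 2 libraries overlap are not ordered. In Control, Cyp2e1 led at 663 ± 36.8 RPKM (SD, n = 2), followed by Lect2 at 167 ± 43.3 RPKM and Glul at 120 ± 12.2 RPKM, with no overlap among these 3. Oat (11.4 ± 2.65 RPKM) and Rnf43 (9.85 ± 0.524 RPKM) overlapped, as did Znrf3, Axin2 and Tbx3 in turn, at 7.13 to 4.08 RPKM on average. Rhbg (2.30 ± 0.767 RPKM) and Lgr5 (1.05 ± 0.459 RPKM) were lowest. The order in Atorvastatin was close to this, with Oat at 6.37 ± 2.08 RPKM among the feedback genes and Lect2 and Glul overlapping. In HCB, Cyp2e1 led at 1486 ± 76.1 RPKM, and Oat (263 ± 149 RPKM) was next, overlapping Glul (193 ± 29.5 RPKM), with Lect2 below them at 74.3 ± 14.6 RPKM. Rnf43, Tbx3, Znrf3, Axin2 and Rhbg lay between 5.67 and 3.51 RPKM on average, each overlapping the next. In Atorvastatin plus HCB, Glul (231 ± 9.13 RPKM) stood above Oat (117 ± 52.6 RPKM), Oat overlapped Lect2 (69.5 ± 17.7 RPKM), and Tbx3 at 8.02 ± 1.38 RPKM was above the ligases and Axin2. Lgr5 was the lowest in all 4 groups.

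The rest of the programme was read from lists of related genes. Of 20 other pericentral enzymes and transporters, 14 were higher and 1 lower in HCB versus Control, with a median log2 difference of 1.76, and 14 and 1 in the combination against Atorvastatin (median 1.45). The 16 periportal genes went the same way, with 9 higher and 1 lower (median 1.25) and 8 higher and 0 lower (median 0.97). Of all genes, 13% and 12.6% were higher in these comparisons. Cyp2c11, the P450 that is typical of male rat liver, was at 4.85 and 4.74 CPM in Control and 3441 and 3120 CPM in HCB, a log2 difference of 9.42 ± 0.49. Akr1c1, an aldo-keto reductase (6.94 ± 0.46), Slc1a2, a glutamate transporter (5.48 ± 0.48), and Cyp1a2, the P450 that the aryl hydrocarbon receptor induces (4.66 ± 0.51), were also higher. Among periportal genes, the IgA transporter Pigr (7.51 ± 0.48), the urea cycle enzymes Ass1 (3.00 ± 0.44) and Arg1 (2.79 ± 0.38), and the histidine-degrading enzyme Hal (1.90 ± 0.26) were higher. The lower genes were Slc13a3, a dicarboxylate transporter, at −1.20 ± 0.24, and G6pc1, the glucose-releasing phosphatase, at −2.03 ± 0.53, both named after their values were seen. The hepatocyte markers, 3 of 8 higher and 1 lower in HCB versus Control, moved with these lists, and their part was not tested.

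The lists of the WNT pathway itself are read beside all genes tested, of which 13% were higher and 13.9% lower in HCB versus Control, and 12.6% and 15% in the combination against Atorvastatin. Of 16 other WNT target and feedback genes tested, 2 were higher and 2 lower in HCB versus Control (median −0.53), which is close to the shares of all genes, and 1 higher and 6 lower in the combination against Atorvastatin (median −0.76). Notum, a secreted enzyme that inactivates WNT proteins, was at 3.10 and 2.18 CPM in Control, 2.75 and 5.17 CPM in Atorvastatin, 41.7 and 32.2 CPM in HCB, and 50.0 and 38.9 CPM in Atorvastatin plus HCB. It was the only feedback gene beside the receptor Fzd7 to be called higher in HCB versus Control, at 3.81 ± 0.36 (adjusted p = 4.781e-05), and the libraries with and without HCB lay far apart. Fzd7 stood at 1.14 ± 0.33. Sox9, a transcription factor of bile duct and progenitor cells (−2.52 ± 0.36), and Apcdd1, a membrane inhibitor of WNT (−1.65 ± 0.36), were lower. In the combination the 6 lower genes were Apcdd1, Sox9, Lef1, Nkd2, Nkd1 and Cd44, of which the last 4 are named after their values were seen. Dkk1 did not pass the filter. Troy is an older name of Tnfrsf19, which was tested under that symbol.

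Ligands and their receptors come next, beside the 26.9% of all genes called in HCB versus Control. Of 24 WNT and R-spondin ligands and secretion factors, 14 could be tested, and 0 passed in either comparison (median −0.62 and −0.78). Rspo3, the R-spondin of central vein endothelium, was at 6.25 and 6.06 CPM in Control, 5.68 and 7.10 CPM in Atorvastatin, 3.64 and 3.82 CPM in HCB, and 4.06 and 3.78 CPM in Atorvastatin plus HCB. No library with HCB reached the others, with a log2 difference of −0.72 ± 0.29 between HCB and Control (adjusted p = 0.09007) and −0.71 ± 0.21 in the average (adjusted p = 0.01554). Wnt9b, a WNT of the same endothelium, was at 1.98 and 1.04 CPM in Control and 0.760 and 0.481 CPM in HCB, and its difference of −1.28 ± 0.58 did not pass (adjusted p = 0.123). Of 15 WNT receptors tested, 2 were higher and 2 lower in HCB versus Control (median −0.08): Fzd7 and Fzd1 (1.11 ± 0.29) against Fzd5 (−2.00 ± 0.34) and Fzd6 (−1.22 ± 0.28). These 4 of 15 are close to the share of all genes. Of 20 genes between receptor and nucleus, 0 were higher and 3 lower. Pygo1 (−2.41 ± 0.62) and Bcl9 (−1.16 ± 0.32) act with beta-catenin in the nucleus. Btrc (−0.75 ± 0.23) is part of the ligase that marks beta-catenin for degradation. Of 9 inhibitors tested, Notum was higher, and Sost (−1.90 ± 0.47) and Sfrp1 (−1.69 ± 0.47) were lower, with a median of −1.69. In the combination against Atorvastatin, receptors had 2 higher and 2 lower, the genes after the receptor 0 and 1, and the inhibitors 1 and 2. The stellate cell and fibroblast markers summed to 559 to 1883 CPM without HCB and 215 to 283 CPM with it. Of these 6 markers, 1 was higher and 3 lower in the average of both HCB effects, where 21.3% of all genes were higher and 25.3% lower. The part of these markers was not tested. Without Control replicate 1 and Atorvastatin replicate 1, fewer receptors and fewer genes between receptor and nucleus passed in HCB versus Control. Fewer of all genes passed there as well. No gene of the 7 lists passed in any atorvastatin comparison.

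**Figure D4:**
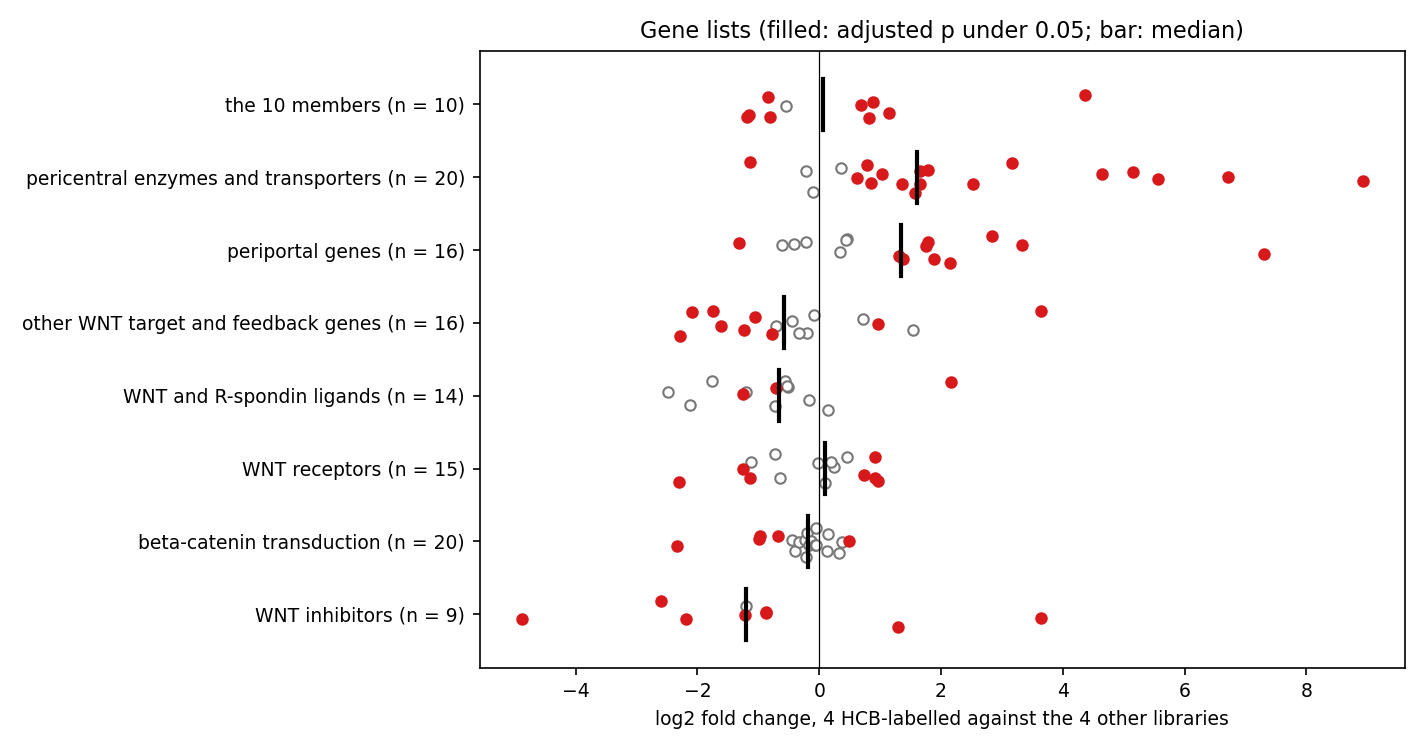
Average HCB-labelled difference (log2, x axis) of every tested gene of the 10-gene set and the 7 lists (y axis, n is the number tested); filled points passed an adjusted p of 0.05 and black bars are medians. Pericentral and periportal genes both lie mostly to the right, with 16 and 9 genes called higher, while the other WNT targets, with 7 called lower and 2 higher, lie mostly to the left.

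In the average of both HCB effects, 16 pericentral genes were higher and 1 lower, 9 periportal genes higher and 1 lower, and 2 other WNT targets higher and 7 lower, where 21.3% of all genes were higher and 25.3% lower. With scaling by library size alone these became 13 and 2, 9 and 4, and 1 and 10, while over all genes 1498 were higher and 6999 lower on that scale. The receptors went from 4 higher and 3 lower to 0 and 7, and the genes between receptor and nucleus from 1 and 4 to 0 and 13, so no direction is given for these 2 lists. The ligands went from 1 higher and 2 lower to 0 and 7, and the inhibitors from 2 and 6 to 1 and 6. Notum was higher and Rspo3 lower on both scales.

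Across the 8 libraries, the genes whose level followed each of the 10 most closely were listed from 12440 genes with a mean of at least 1 CPM, by Pearson's r of log2 CPM. The 8 points share the split by HCB label and differ in depth. Of these genes 1588 had r over 0.9 with Oat, 1139 with Glul, and 113 with Axin2. The closest were Trappc11 (0.996) and Mlx (0.996) for Oat, Clpb (0.993) and Mmp19 (0.991) for Glul, and Fmo5 (0.990) and Mt-nd2 (0.989) for Cyp2e1. For Rhbg they were Lgals3bp (0.975) and Scpep1 (0.974), and Rab11fip5 (0.981) was among the 2 closest to Tbx3. Smc2 (0.985) was among the 2 closest to Lgr5. The nearest to Lect2 were P2ry13 (0.995) and Pmp22 (0.987), to Rnf43 Alox5 (0.983) and Marchf3 (0.982), to Znrf3 Tmem64 (0.996) and Zfp516 (0.992), and to Axin2 Kmt2b (0.991) and Gimap8 (0.983). None of the 10 genes was among the 2 closest of another.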

How the data were processed

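Whole-number read counts for 30562 Ensembl genes in 8 libraries were deposited by the authors. Trimming used fastp 0.23.4, alignment to mRatBN7.2 used STAR 2.7.10b, and the authors' own test was DESeq2 1.42.1 in R 4.3.2, per the submitters' processing notes. Per the file headers, exon counts came from featureCounts 2.0.6 with Ensembl release 111, without strand and without an option to count read pairs, so mates appear to be counted singly. For the tests, edgeR 4.0.16 in R 4.3.3 was run on the counts with TMM, filterByExpr, and the robust quasi-likelihood test in 1 model of 4 groups with 4 residual degrees of freedom. Adjusted p-values are Benjamini-Hochberg over 16591 genes, with a threshold of 0.05, and the common coefficient of variation was 0.295. CPM are per effective library size, and log2 CPM carry a prior count of 2. Fold changes are given with standard errors. Each library is 1 rat per the labels, and same-numbered rats were treated as unpaired. Their deviations from the group means correlated at −0.05 to 0.27, highest between Control and Atorvastatin. With 2 libraries per group these values cannot test pairing.

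The 10 genes and the lists were chosen with earlier results of these data known. The naming rule took the 10 genes, up to 4 genes per list with the smallest p past the threshold in HCB versus Control (2 where none passed), and for each of the 10 the 2 genes closest by correlation, not all of which are reported here. The other settings tried were DESeq2 1.42.0, DESeq2 size factors within edgeR, library size alone, no filter, at least 1 CPM in 2 libraries, a replicate block, 2 groups alone and each library left out. Leaving out Control replicate 1 and Atorvastatin replicate 1 together was chosen after seeing the data. The steps were tested on simulated counts. Promoter windows are RefSeq's, on GRCr8. Of the table's sample columns, 0 were unused.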

Additional observations from a re-analysis of the deposited data

How the results depend on the processing

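Among the results followed through the alternatives, the direction of a gene reversed in few, all of them for values that had not passed. In the atorvastatin contrasts only Oat, Axin2 and Tbx3 of the 10 genes were followed in this way. With library size alone, the number of the 10 genes above 0 went from 6 to 4 in the interaction. It went from 4 to 5 in Atorvastatin versus Control, so other genes of the 10 changed sign there too. Tbx3 in HCB versus Control was −0.17 with library size alone, and −0.19 to 0.63 with each library left out. In Atorvastatin plus HCB versus Atorvastatin, Axin2 was 0.024 without both libraries with most reads outside exons and −0.67 to 0.028 with each library left out, and Wnt9b was −0.49 with library size alone and −0.14 to 0.59. Left-out libraries gave −0.048 to 1.10 for Axin2 in Atorvastatin versus Control, and in the interaction −0.88 to 0.41 for Oat and −0.32 to 0.97 for Axin2. For HCB versus Control, the number of the 10 genes called was 2 (2108 of all genes) without both of those libraries and 1 to 5 (2164 to 4622 of all genes) with each library left out. For Atorvastatin plus HCB versus Atorvastatin it was 5 with library size alone, 5 with 2 groups alone, 2 (2147) without both libraries, and 2 to 7 (1902 to 4819) with each left out. For the HCB average it was 5 (4643) without both libraries. For the 4 atorvastatin contrasts (Atorvastatin versus Control, Atorvastatin plus HCB versus HCB, their average and the interaction), all genes called were 3, 47, 12 and 5 with DESeq2 and 76, 179, 140 and 70 with no filter, where 1 of the 10 genes, Oat, was called in Atorvastatin plus HCB versus HCB and 1, again Oat, in the average. With each library left out these 4 contrasts had 0 to 33, 0 to 6, 0 to 9 and 0 to 5 genes. The cause was not tested. In Atorvastatin plus HCB versus Atorvastatin, all genes called were 5527 with library size alone and 4819 with 2 groups alone, against 4571 in the main fit. So 5 of the 10 genes passed at each of these 2 settings, against 8 in the main fit, while more of all genes passed. A replicate block, which takes same-numbered rats as pairs, gave 4 of the 10 genes in HCB versus Control (4282 of all genes). Znrf3 missed the threshold there (adjusted p = 0.0531), and no other call among the 10 changed. Glul passed in HCB versus Control with DESeq2 (adjusted p = 0.0363). With no filter, 9 of the 10 genes passed in Atorvastatin plus HCB versus Atorvastatin, 5 higher and 4 lower (5483 of all genes). All 10 passed with no filter in the HCB average, 5 higher and 5 lower (8265 of all genes). Where a left-out library leaves 1 library in a group, that library is assumed to vary like the other groups. Depth limits Lgr5 most, with 49 reads in its lowest library.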
